A study of Mus musculus with 8 samples.

Results

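Genes of mitosis and of the G2/M transition were followed in mouse oligodendrocyte precursor cultures kept at a mild hypothermic or at a normal temperature. The set is a list of 36 gene symbols, from the cyclin-dependent kinase Cdk1 to the cytokinesis scaffold Anln, chosen by known function. Of these, 35 had at least 1 array probe set annotated to them alone, out of 18193 such genes on the array, and all 35 were among the 11525 genes bright enough to be tested. Ccnb1, the main B-type cyclin, was not analysed here.

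The precursors came from ICR mice, from the cerebral hemispheres of 15-day embryos, were grown for 5 days with 10% FBS, and were then moved to serum-free basal medium for 48 hr at 37 °C or at 31.5 °C. Both groups thus shared strain, embryonic age, serum phase and serum withdrawal, and differed by 5.5 °C. Each temperature had 4 arrays of total RNA, numbered as replicates 1 to 4. The labels mention 3 mice for a group without saying how these relate to the 4 replicates, so errors and p-values cover the spread among these 8 samples alone, and that spread may be technical.

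Cells that divide switch on a late wave of transcripts as DNA replication ends, and destroy many of the encoded proteins as they leave mitosis. The kinase Cdk1 with its cyclins starts mitosis, the spindle checkpoint holds it until all chromosomes are attached, and the anaphase-promoting complex ends it by marking cyclins and securin for degradation. The transcripts of this wave are therefore widely read as a sign of cycling cells, and oligodendrocyte precursors are a main dividing cell type of the brain that leave the cycle when they turn into myelinating cells. In a bulk culture, fewer dividing cells and less of a transcript in each cell cannot be told apart.

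Promoters of such late cell cycle genes are known for a short element near the transcript start, the cell cycle homology region (TTTGAA or TTCGAA), and for CCAAT boxes upstream of it. RefSeq promoter windows of GRCm38.p6, which run from 250 bases before to 50 bases after the start, were found for 31 of the 36 genes. Those of the member that rose, of the member that fell, of the proliferation marker Mki67, and of Mad2l1, a member with neither motif, are printed 5′ to 3′ with the motifs on either strand in capitals. The region reads TTCAAA and the box ATTGG where they lie on the other strand, and TTCGAA reads the same on both.

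Ube2c (chr2:164769679-164769978, plus strand): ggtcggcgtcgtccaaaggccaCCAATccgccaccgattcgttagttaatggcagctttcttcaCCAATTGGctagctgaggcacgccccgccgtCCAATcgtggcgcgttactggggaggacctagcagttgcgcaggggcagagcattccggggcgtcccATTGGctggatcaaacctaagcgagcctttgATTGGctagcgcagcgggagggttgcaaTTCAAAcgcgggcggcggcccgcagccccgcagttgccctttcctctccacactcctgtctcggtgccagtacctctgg

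Cdca3 (chr6:124829926-124830225, plus strand): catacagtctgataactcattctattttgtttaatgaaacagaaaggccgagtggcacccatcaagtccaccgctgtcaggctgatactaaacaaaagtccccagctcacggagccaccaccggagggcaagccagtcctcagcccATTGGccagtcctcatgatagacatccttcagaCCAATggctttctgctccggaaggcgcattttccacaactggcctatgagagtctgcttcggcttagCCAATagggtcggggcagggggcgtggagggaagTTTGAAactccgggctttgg

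Mki67 (chr7:135716330-135716629, minus strand): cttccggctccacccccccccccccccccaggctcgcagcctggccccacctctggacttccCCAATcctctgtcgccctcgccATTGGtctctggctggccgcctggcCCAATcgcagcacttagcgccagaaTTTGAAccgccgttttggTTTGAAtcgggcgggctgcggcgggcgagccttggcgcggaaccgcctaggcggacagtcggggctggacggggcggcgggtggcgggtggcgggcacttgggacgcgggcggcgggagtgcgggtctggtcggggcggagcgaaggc

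Mad2l1 (chr6:66534971-66535270, plus strand): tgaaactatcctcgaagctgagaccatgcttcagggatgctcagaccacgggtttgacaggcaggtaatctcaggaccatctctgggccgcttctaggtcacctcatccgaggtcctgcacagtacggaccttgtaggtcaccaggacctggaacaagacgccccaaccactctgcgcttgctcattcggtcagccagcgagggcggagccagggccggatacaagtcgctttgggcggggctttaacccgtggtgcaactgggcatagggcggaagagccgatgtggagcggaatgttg

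In the Ube2c window a CCAAT and an ATTGG overlap, and each is counted, which gives 6 CCAAT boxes and 1 homology region. The Cdca3 window has 3 and 1, and the Mki67 window 3 and 2. A match shows only that these letters occur in the window. The homology region was found in 24 of the 31 genes (77.4%), against 15.8% of the 9374 tested genes with a window and 19.2% of all 32851 windows of the table. It lay within 50 bases of the start in 22 of them, whereas 4.18% of the tested genes held one there. CCAAT boxes were present in 25 of the 31 (80.6%), against 43.1% of the tested genes and 37.4% of all windows, and 2 or more in 18 of the 31 (58.1% against 16.9%). Both motifs stood in 1 window for 21 genes (67.7% against 6.44%), and neither was found for Mad2l1, Birc5 and Nusap1. Among 32 genes of S phase with a window, the homology region was found in 5 (15.6%) and a CCAAT box in 18 (56.2%). Among 95 other genes of mitosis with a window, the homology region was found in 48 (50.5%), within 50 bases of the start in 36 (37.9%), a CCAAT box in 57 (60%), and both in 35 (36.8%).

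**Figure D1:**
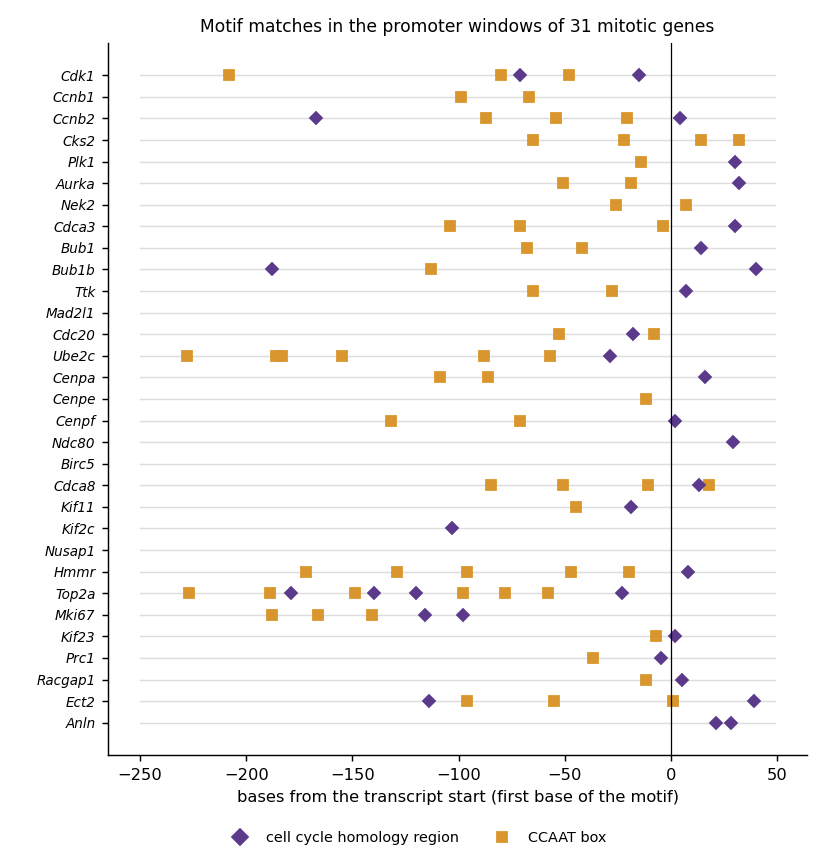
Position of each motif match in the first promoter window of the 31 genes that have one, in bases from the transcript start (0); diamonds are cell cycle homology regions and squares CCAAT boxes, on either strand. For 22 of the 31 genes a diamond lies within 50 bases of the start, and the rows of Mad2l1, Birc5 and Nusap1 are empty.

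Array signals are fluorescence values of a probe set, scaled so that the 8 arrays share a trimmed mean (2% of values dropped at each end), and values under 9.80 were raised to that floor for tests. Before scaling that mean lay between 189 and 238 at 31.5 °C and between 132 and 248 at 37 °C, lowest in replicate 4 at 37 °C, whose values were multiplied by 1.60. The 3′ to 5′ signal ratio of the actin control, a sign of RNA integrity, was 1.17 to 1.27 at 31.5 °C and 1.20 to 1.30 at 37 °C, highest in replicate 4 of both. Changes are differences of log2 signal, 31.5 °C minus 37 °C, ± SE, and signals are mean ± SD (n = 4 arrays at each temperature). A gene is said to have risen or fallen at 31.5 °C where its adjusted p in limma, a linear model fitted to each of the 11525 genes, is under 0.05. Same-numbered arrays deviated together from their group means (correlations across genes of 0.422 to 0.614), so each pair is given, and calls of a fit with the replicate number as a block are given beside those of the members and gene lists where they differ. The median SE was 0.12 both for the 35 genes and for all genes tested.

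Of the 35 genes, 1 rose (Cdca3), 1 fell (Ube2c) and 33 did not pass. These 2 make 5.71%, while 15.4% of all genes tested passed, 7.64% higher and 7.77% lower. The median change of the 35 was -0.08, with 23 below 0 and 12 above, against -0.0017 for all genes; with median scaling of the arrays the members' value was 0.01. The median size of a change, whatever its sign, was 0.13 for the mitotic genes and 0.18 for all genes. Among the 35, 28 had a 95% interval that lay within 1.5-fold in either direction, and all 35 within 2-fold. SEs and intervals throughout are from the fit without the block, which does not use the pairing. The block raised the count to 4 (11.4%), adding Mad2l1 above and Prc1 below, against 30.8% of all genes, 15.0% higher and 15.8% lower. In limma with the block over single probe sets, the same probe sets of Mad2l1 and Prc1 did not pass (adjusted p = 0.0626 and 0.0505). The 4 cold arrays all lay on 1 side of the 4 warm ones for Cdca3, Prc1 and Ube2c (8.57%), against 22.2% of all genes, 11.7% higher and 10.5% lower.

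**Figure D2:**
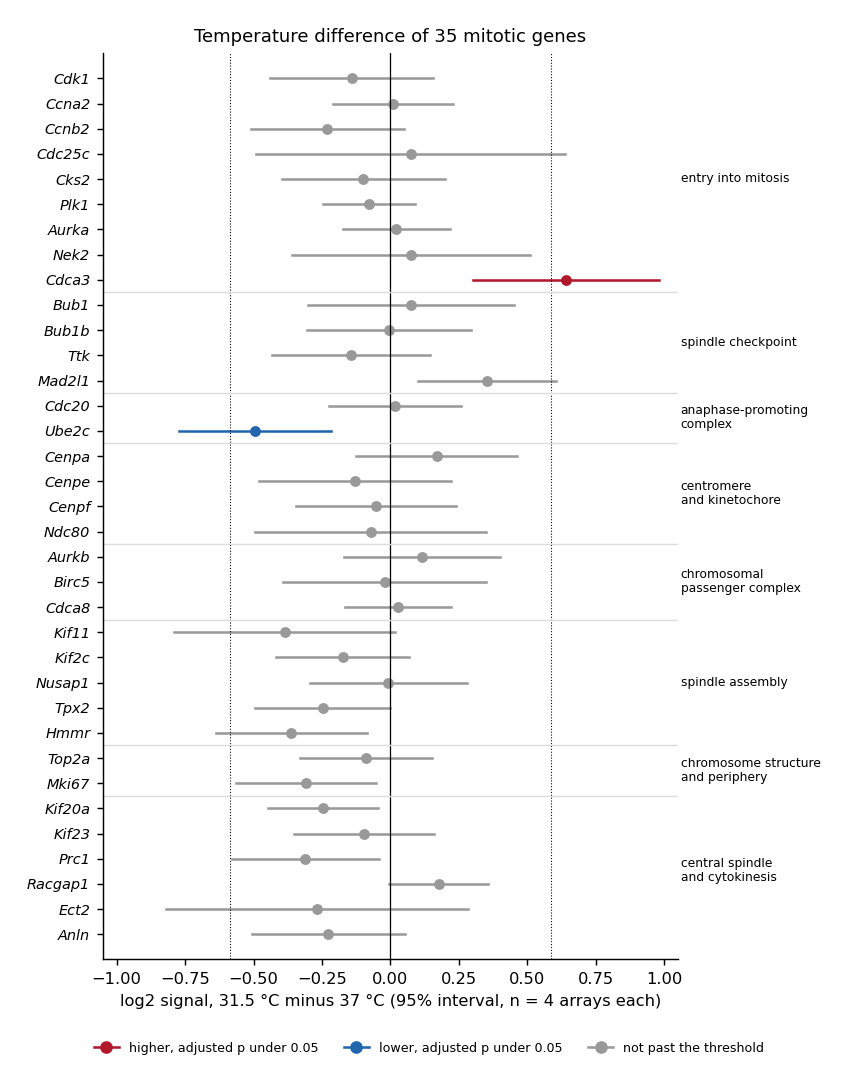
Change of each of the 35 genes on the log2 scale (points, 31.5 °C minus 37 °C) with its 95% interval (lines), ordered by role; dotted lines mark 1.5-fold in either direction. Cdca3 at 0.64 and Ube2c at -0.49 are the coloured points, and 28 of the 35 intervals lie between the dotted lines.

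Among the genes of mitotic entry, Cdca3 rose. Cdca3 (probe set 1452040_a_at) encodes an adaptor that helps to destroy Wee1, the kinase that holds Cdk1 inactive. Cold replicates 1 to 4 had signals of 357, 262, 285 and 333. At 37 °C it was 225, 172, 235 and 166. The groups did not overlap, and the lowest cold array, replicate 2, stood above the highest warm array, replicate 3. The means were 309 ± 43.5 and 199 ± 35.7, a change of 0.64 ± 0.15 or 1.56-fold (adjusted p = 0.0247), and the change was 0.66, 0.61, 0.28 and 1.01 in pairs 1 to 4. Averaging all 3 probe sets of the gene, of which the dimmer ones lie near the floor and were not tested, gave 0.15 (adjusted p = 0.474). Without replicate 1, 3 or 4 at 31.5 °C or replicate 2 or 4 at 37 °C, the change of Cdca3 stayed between 0.56 and 0.68 and the adjusted p was 0.0501 to 0.0649.

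The other 8 measured genes of entry did not pass, and their median with Cdca3 was 0.01. Cdk1 (1448314_at), the kinase itself, was at 557, 408, 499 and 573 at 31.5 °C. At 37 °C it was at 536, 514, 665 and 527, so the groups overlapped, with replicate 3 at 37 °C the highest and replicate 2 at 31.5 °C the lowest. Its change was -0.14 ± 0.13, with an interval of -0.44 to 0.16. Ccnb2 (1450920_at), a B-type cyclin, was at 120, 126, 144 and 148 at 31.5 °C. The 37 °C arrays gave 178, 146, 178 and 133. All but replicate 4 at 37 °C stood above the first 3 cold replicates, and the change of Ccnb2 was -0.23 ± 0.12 (adjusted p = 0.239). Ccna2, the A-type cyclin of S phase and mitotic entry, had 0.01 ± 0.10. Plk1, the Polo kinase of spindle poles and kinetochores, had -0.08 ± 0.07, the narrowest interval of the set (-0.25 to 0.09). Aurka, the centrosomal Aurora kinase, had 0.02 ± 0.09, and Cks2, a small subunit that binds Cdk1, -0.10 ± 0.13. The remaining regulators varied more between arrays. Cdc25c, a phosphatase that activates Cdk1, had 0.07 ± 0.25 with -0.86, 0.45, -0.06 and 0.77 in the pairs. The centrosome kinase Nek2 had 0.08 ± 0.19 with -0.65, 0.06, 0.35 and 0.54. These were the pair values farthest apart in the list.

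In the spindle checkpoint, Mad2l1 (1422460_at) had the value farthest from 0. It encodes Mad2, which binds Cdc20 and keeps the anaphase-promoting complex off. Its signal at 31.5 °C was 636, 580, 580 and 651. At 37 °C it was 483, 438, 582 and 425. Replicate 3 at 37 °C was level with the 2 lowest cold arrays, and the other 3 warm arrays stood below all cold arrays. The means were 612 ± 37.3 and 482 ± 71.2 (0.35 ± 0.11, adjusted p = 0.0641, and 0.0499 with the block), and the pairs had 0.40, 0.40, -0.0049 and 0.61. Bub1, a kinase that gathers checkpoint proteins at kinetochores, had 0.08 ± 0.17, and Bub1b, its pseudokinase relative that also binds Cdc20, -0.0046 ± 0.13. Ttk, the kinase Mps1 at the head of the checkpoint, had -0.14 ± 0.13, with -0.35, -0.22 and -0.34 in pairs 1 to 3 and 0.33 in pair 4.

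The anaphase-promoting complex is represented by its activator and its ubiquitin carrier. Ube2c (1452954_at), the carrier enzyme that starts the ubiquitin chains, fell. Its signal at 31.5 °C was 612, 624, 607 and 655. At 37 °C it was 1016, 824, 1007 and 708. Every warm array stood above every cold one, replicate 4 at 37 °C being the nearest. The means were 624 ± 21.5 and 889 ± 149, a change of -0.49 ± 0.12 or 1.41-fold lower (adjusted p = 0.0297), and the pairs had -0.73, -0.40, -0.73 and -0.11. The call did not hold with median scaling (-0.40, adjusted p = 0.192), nor without pair 1, 2 or 3. With median scaling fewer of all genes passed too. Without any 1 of replicates 1 to 3 at either temperature, the change of Ube2c was -0.53 to -0.42 and the adjusted p 0.0546 to 0.0777. Cdc20, the activator, had 0.02 ± 0.11, with 752 ± 77.4 and 743 ± 72.7.

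**Figure D3:**
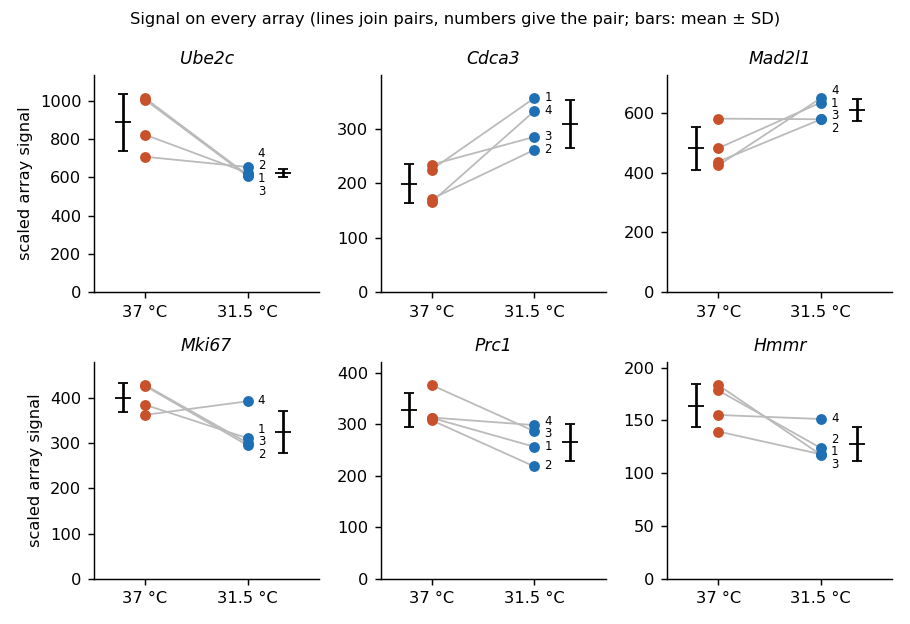
Scaled signal of 6 mitotic genes on every array (y axes start at 0): points are arrays, grey lines join arrays of the same replicate number, numbers beside the 31.5 °C points give it, and black bars are mean ± SD of 4 arrays. The groups are apart for Ube2c, Cdca3 and Prc1 and overlap for Mad2l1, Mki67 and Hmmr; for Mki67 the line of pair 4 slopes upward.

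Centromere and kinetochore genes did not pass. Cenpa, the histone variant that marks centromeres, was at 298 ± 42.8 and 264 ± 31.2 (0.17 ± 0.13). Its pairs had 0.27, -0.03, -0.07 and 0.51. Cenpe, a kinetochore motor, had -0.13 ± 0.15, Cenpf, a large protein of the outer kinetochore, -0.05 ± 0.13, and Ndc80, a microtubule-binding subunit of the kinetochore, -0.07 ± 0.19. The 3 genes of the chromosomal passenger complex, which corrects faulty attachments, lay close to 0. Aurkb, its kinase, had 0.12 ± 0.13, Birc5 (survivin) -0.02 ± 0.16 and Cdca8 (borealin) 0.03 ± 0.09.

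All 5 genes of spindle assembly had negative values, with a median of -0.25 and adjusted p-values from 0.0778 upward. Hmmr (1425815_a_at), a microtubule-binding protein of spindle poles, was at 118, 124, 117 and 151 at 31.5 °C. Its warm arrays gave 139, 178, 183 and 155. Replicate 4 at 31.5 °C stood above replicate 1 at 37 °C, and the other cold arrays lay below all warm ones. The means of Hmmr were 128 ± 16.0 and 164 ± 20.5 (-0.36 ± 0.12, adjusted p = 0.0778), with all 4 pairs below 0. Kif11 (1435306_a_at), the motor that pushes spindle poles apart, was at 105, 89.0, 95.6 and 88.9 at 31.5 °C. Its warm arrays gave 151, 147, 125 and 83.9, of which replicate 4 was the lowest of all 8 and the other 3 stood above every cold array. Kif11 thus had -0.39 ± 0.18 (adjusted p = 0.178). Leaving out pair 4, chosen because it stood apart in these same genes, gave -0.54 (adjusted p = 0.0341 in limma). Kif11 did not pass without pair 1, 2 or 3. Tpx2, which activates Aurora A on the spindle, had -0.25 ± 0.11 (adjusted p = 0.157). Kif2c, a motor that shortens microtubules, had -0.17 ± 0.11 and was below 0 in all 4 pairs. Nusap1, which bundles spindle microtubules, had -0.0071 ± 0.13.

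Mki67 (1426817_at), the gene of the Ki-67 protein that coats mitotic chromosomes and marks cycling cells, was at 311, 296, 301 and 393 at 31.5 °C. At 37 °C it was at 385, 427, 429 and 363. Replicates 1 to 3 were each higher at 37 °C than any of the first 3 cold arrays, while in replicate 4 the order was turned. The change of Mki67 was -0.31 ± 0.11 (adjusted p = 0.0982), with -0.31, -0.53, -0.51 and 0.11 in the pairs. Leaving out pair 4, chosen because it stood apart in these same genes, gave -0.45 (adjusted p = 0.0286 in limma). Mki67 did not pass without pair 1, 2 or 3. Top2a, the topoisomerase that untangles sister chromatids, was at 769 ± 67.1 and 819 ± 96.0 (-0.09 ± 0.11).

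Of the 6 genes of the central spindle and cytokinesis, 5 had negative values. Prc1 (1423775_s_at), which bundles the microtubules between separating chromosomes, was at 256, 218, 286 and 298 at 31.5 °C. At 37 °C it was at 312, 308, 376 and 313. The groups did not overlap, and cold replicate 4 came nearest to the warm arrays. The means were 265 ± 35.8 and 327 ± 32.5 (-0.31 ± 0.12, adjusted p = 0.113, and 0.0385 with the block), and all 4 pairs were below 0. Kif20a, a motor that carries the passenger complex to the central spindle, was at 124 ± 6.76 and 147 ± 12.5 (-0.25 ± 0.09, adjusted p = 0.0936). Kif23, the motor subunit of centralspindlin, had -0.10 ± 0.11. Racgap1, its partner in that complex, had 0.18 ± 0.08 with all 4 pairs above 0 (adjusted p = 0.171). Ect2, the exchange factor that activates RhoA at the furrow, had -0.27 ± 0.24, and Anln, a scaffold of the contractile ring, -0.23 ± 0.12.

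The temperature difference of the 35 genes was not alike in the 4 pairs. Their median change was -0.07, -0.09 and -0.23 in pairs 1, 2 and 3 and 0.17 in pair 4, while the median of all genes tested lay between -0.015 and 0.0085 in the 4 pairs. Above 0 were 13, 9 and 3 of the 35 in pairs 1 to 3, against 51.1%, 51.0% and 47.9% of all genes, and 29 in pair 4, against 50.1%. The 3 of pair 3 were Cdca3, Nek2 and Racgap1. Pair 4 had the highest of the 4 differences for 31 of the 35 (88.6%), whereas it did so for 25.6% of all genes. It had the lowest for 0 of the 35, against 26.5% of all genes.

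A set of 12 genes (34.3%) was below 0 in pairs 1 to 3 and above 0 in pair 4, a pattern shown by 4.33% of all genes. They were Anln, Ccnb2, Cks2, Ect2, Kif11, Kif20a, Mki67, Ndc80, Nusap1, Plk1, Top2a and Ttk. In pair 4, Plk1 (0.0020) and Kif20a (0.0059) lay close to 0. The other tested probe sets of Kif11 and Top2a did not show the pattern, while that of Cks2 did. The opposite pattern was shown by 0 of the 35 and by 4.45% of all genes. Only 7 of the 35 (20.0%) had the same sign in all 4 pairs, against 50.4% of all genes. Cdca3 and Racgap1 were above 0 in each pair (25.3% of all genes were), and Hmmr, Kif2c, Prc1, Tpx2 and Ube2c below (25.1%). Racgap1, Kif2c, Prc1 and Tpx2 had another tested probe set of mixed signs across pairs. All tested probe sets of Hmmr were below 0 in every pair. Each pair holds 1 array at each temperature, so these values have no test.

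**Figure D4:**
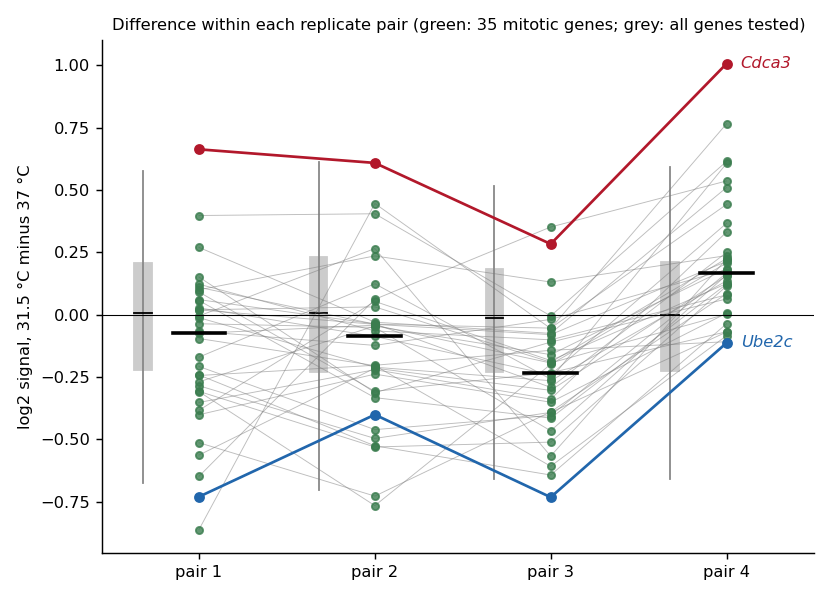
Change within each same-numbered pair on the log2 scale (31.5 °C minus 37 °C): green points are the 35 genes, thin lines join a gene across pairs, and thick bars are their medians; the grey box and line at the left of each pair show the middle 50% and the middle 90% of all 11525 genes. The median is -0.07, -0.09 and -0.23 in pairs 1 to 3 and 0.17 in pair 4.

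Set against each gene's own mean over the 8 arrays, the 35 genes were highest as a group in replicate 3 at 37 °C (median 0.23 above), the highest array for 22 of them. Replicate 4 at 31.5 °C followed (0.10 above). The group was lowest in replicate 2 at 31.5 °C (-0.18) and in replicate 4 at 37 °C (-0.11), each the lowest array for 12 genes. The remaining arrays gave -0.07 for cold replicate 1, -0.01 for cold replicate 3, and 0.04 and -0.05 for warm replicates 1 and 2. In pair 4, then, the cold array was above and the warm array below the genes' own means. The array of replicate 4 at 37 °C was also the dimmest before scaling, and 19.5% of its values were at the floor, against 23.5% to 28.6% on the others; whether this plays a part was not tested.

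**Figure D5:**
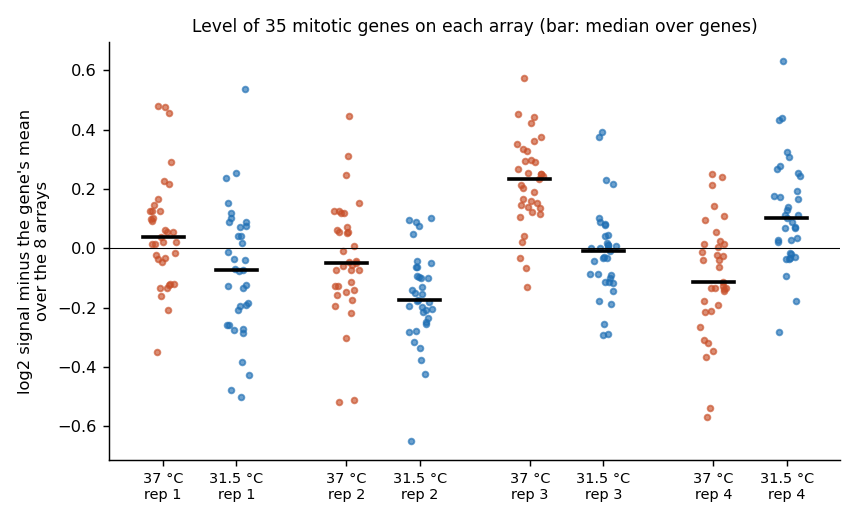
Log2 signal of the 35 genes on each array minus the gene's mean over the 8 arrays; points are genes (blue 31.5 °C, red 37 °C) and bars are medians over genes. The bars lie at 0.23 in replicate 3 at 37 °C and at -0.18 in replicate 2 at 31.5 °C, and in replicate 4 the 31.5 °C bar (0.10) is above the 37 °C bar (-0.11).

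Without pair 4, 3 of the 35 fell (Kif11, Mki67 and Ube2c; 8.57%) in limma and 0 rose, against 9.57% of all genes in either direction, 4.76% lower and 4.81% higher. Cdca3 had 0.52 in that fit (adjusted p = 0.0949). Before adjustment, 9 members (25.7%) were lower and 1 higher (2.86%) at a p under 0.05 without pair 4, against 14.0% and 14.6% of all genes, while all 8 arrays gave 2 higher (Cdca3 and Mad2l1) and 6 lower (Hmmr, Kif20a, Mki67, Prc1, Tpx2 and Ube2c), or 22.9% of the members against 31.1% of all genes (15.6% higher and 15.5% lower). With the block, 8 fell without pair 4 (Anln, Hmmr, Kif11, Kif20a, Mki67, Prc1, Ttk and Ube2c) and Cdca3 rose. The 8 make 22.9% of the members, against 11.2% of all genes that fell in the same fit, where 9.79% rose and 21.0% passed in either direction. Leaving out pair 1, 2 or 3 with the block gave 0 members lower in limma, against 9.67%, 10.1% and 10.3% of all genes. At an unadjusted p under 0.05 these fits with the block gave 3, 2 and 2 members lower (8.57%, 5.71% and 5.71%), against 19.2%, 19.4% and 18.8% of all genes. The 9 members lower without pair 4 came from the fit without the block. With the block 11 were lower there. Without the block, leaving out pair 1, 2 or 3 gave 2, 1 and 1 lower. Shares of all genes for these further counts are not given here. By adjusted p, Cdca3 was higher in each block fit without pair 1, 2 or 3, and Mad2l1 too without pair 3, against 8.09%, 8.43% and 9.34% of all genes higher. Pair 4 was left out because it stood apart in these same genes.

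Several genes had more than 1 probe set, and 15 had at least 2 that were tested. For 11 of these all probe sets lay on 1 side of 0, and for Ccna2, Cdca8, Kif11 and Tpx2 they did not. The 4 probe sets of Hmmr lay between -0.59 and -0.36. Of these, 1450157_a_at was at 46.2, 48.9, 54.6 and 64.7 at 31.5 °C. At 37 °C it read 76.0, 71.4, 73.6 and 78.5, above every cold array, and it fell (-0.49 ± 0.11, adjusted p = 0.0252 over 22519 probe sets). The 3 of Kif11 lay between -0.39 and 0.10, and the brightest, which stands for the gene, was the only 1 below 0. Aurkb had 0.12 at the brighter probe set and 0.39 at 1451246_s_at, which rose (adjusted p = 0.0265). Cdc25c had 0.07 and 0.74 at its pair of probe sets, and the latter read 15.2 in replicate 4 at 37 °C against 33.6 to 63.1 on the other arrays. Over all 56 tested probe sets of the 35 genes, 2 rose and 2 fell (7.14%), against 13.2% of the 22519, 6.46% higher and 6.76% lower. With the block 2 were higher and 5 lower (12.5%). The lower ones were 1427541_x_at, 1450156_a_at and 1450157_a_at of Hmmr, 1428105_at of Tpx2, and that of Ube2c. The share of all probe sets that passed with the block is not given here, so these counts are not read as a result about the members.

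Split by promoter, the 24 genes with a cell cycle homology region had a median change of -0.09, from -0.49 to 0.64, and 17 of them were below 0. The 6 measured genes with a window but without the region (Cks2, Nek2, Mad2l1, Cenpe, Birc5 and Nusap1) had -0.01, from -0.13 to 0.35, with 4 below 0. Ube2c and Cdca3, which moved in opposite directions, both hold 1 region and several CCAAT boxes in the printed windows.

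Further genes of mitosis outside the 36 gave 6 rises and 4 falls among 111 tested (9.01%, against 15.4% of all genes), with a median of 0.01. With the block they gave 9 rises and 8 falls, where 30.8% of all genes passed. Among 34 of the checkpoint and kinetochore, Cenpu (0.49) and Zwint (0.37) rose, and Mis12 (-0.41) and Spc24 (-0.48) fell, and the block gave 3 higher and 3 lower. The call of Mis12 held in 25 of 28 alternative analyses, that of Zwint in 13 of 28, that of Cenpu in 12 of 27 and that of Spc24 in 9 of 27. Among 15 of the anaphase-promoting complex, Anapc4 rose (0.47), and the small subunits Anapc13 and Anapc11 fell (-0.45 and -0.33), with calls that held in 25, 26 and 15 of 28 alternatives, and the block gave 2 higher and 4 lower. Pttg1, the gene of securin, which the complex destroys, rose by 0.36, the cohesin subunit gene Stag1 by 0.28, and Tacc3, a spindle microtubule gene, by 0.36. These calls held in 16 of 28, 12 of 28 and 22 of 27 alternatives. With the block 2 of 20 cohesin and condensin genes were higher, and 1 of 27 other spindle and cytokinesis genes was higher and 1 lower. None of the 15 other entry and transcription regulators passed in this fit, at a median of 0.13 with 13 above 0, and 1 was higher with the block. The pair medians of the 111 were -0.02, -0.02, -0.09 and 0.13, and 20 of them (18%) were below 0 in pairs 1 to 3 and above 0 in pair 4. By list, that order was found in 9 of 27 other spindle and cytokinesis genes (33.3%), near the members' own share, in 7 of 34 of the checkpoint and kinetochore (20.6%) and in 4 of the remaining genes.

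S phase genes had pair medians of 0.0074, 0.09, -0.10 and 0.21. Of 37 tested, Chaf1b (0.71), a chromatin assembly factor of replication, and Rfc3 (0.45), a clamp loader subunit, rose. Pola1 (-0.64) and Pole2 (-0.37), subunits of replicative polymerases, fell. The calls of Chaf1b, Rfc3 and Pola1 held in 25 of 27, 24 of 28 and 21 of 27 alternatives, and that of Pole2 in 9 of 27. The S phase genes that passed make 10.8% of those tested, against 15.4% of all genes. With the block 3 were higher and 3 lower, against 15.0% and 15.8% of all genes. Of the 37, 7 (18.9%) were below 0 in pairs 1 to 3 and above 0 in pair 4. On the warm arrays their median level was highest in replicate 3 (0.21) and lowest in replicate 4 (-0.13), as for the mitotic genes. On the cold arrays it was highest in replicate 3 (0.12) and lowest in replicate 1 (-0.06), whereas the mitotic genes were highest in replicate 4 (0.10) and lowest in replicate 2 (-0.18). Of 18 tested D cyclins, CDK inhibitors and pocket protein genes, which set the decision to cycle, Ccnd2 rose by 0.50 and Cdkn2d, an inhibitor of Cdk4 and Cdk6, fell by 0.31 (calls that held in 27 and 17 of 28 alternatives), and the block gave 3 higher and 2 lower. Without the block the genes that passed make 11.1% of these 18, also below the share of all genes. The pair medians of the 18 lay between -0.01 and 0.07.

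Markers of the labelled cell type differed in brightness. Olig1 was at 6044 to 7578, Pdgfra at 1672 to 2912 and Cspg4 at 93.9 to 188 on the 8 arrays. All 10 precursor markers were tested. Pdgfra and Lhfpl3 rose, Gpr17, Matn4 and Nkx2-2 fell, and their summed signal was 16484 to 18946 at 31.5 °C and 17236 to 20553 at 37 °C. All 7 tested markers of myelinating cells, which no longer divide, fell, with sums of 9739 to 14030 and 19420 to 24431 that did not overlap. With the block 2 precursor markers were higher and 4 lower. Of the other cell types that a mixed brain culture can hold, no marker was at the floor on all 8 arrays. Of 10 microglia markers Fcrls fell, and their sums were 5545, 5492, 8849 and 9658 in cold replicates 1 to 4 and 7115, 5977, 12778 and 13237 in the warm ones, higher in replicates 3 and 4 of both. Of 9 astrocyte markers S100b fell, with sums of 9468 to 16776 and 12720 to 22326. Fibroblast markers (Thy1 fell, of 8) summed to 2440 to 2883 in the first 3 cold replicates and 5964 in the fourth, and to 2685 to 3947 and 4995 in the warm ones, highest in replicate 4 of both. Col3a1 alone made 3525 of the cold and 2563 of the warm sum in replicate 4. Col1a1 was also highest in replicate 4 at both temperatures, whereas Col1a2 was lowest there (235 and 225). Of 10 neuron markers Nefm rose and Gap43 fell (10672 to 13694 and 11131 to 15763), and of 10 neural stem markers Msi1, Notch1 and Sox1 rose (15480 to 17312 and 15701 to 16618). The 2 tested of 6 endothelial markers did not pass (102 to 205 and 87.6 to 197 for all 6). More of these markers were lower with the block: 6 of 9 of astrocytes, among them Gfap, Aqp4 and Aldh1l1, 4 of 10 of microglia, 4 of 10 of neurons, 3 of 8 of fibroblasts and 1 of 2 of endothelium, while 4 neural stem markers were higher and 1 lower, and 1 neuron marker was higher. The block raised calls in general: 15.8% of all genes were lower and 15.0% higher with it, against 7.77% and 7.64% without. The order of pairs 1 to 3 below 0 and pair 4 above was found in 3 of the 8 fibroblast markers (37.5%) and 1 of 9 astrocyte markers (11.1%), against 4.33% of all genes. It was found in 0 tested markers of precursors, myelinating cells, microglia, neurons, neural stem cells and endothelium. The part of other cell types in the mitotic values, or in pair 4, was not tested.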

How the data were processed

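Expression of 36 mitotic genes was read from the 8-array series table. The authors deposited linear intensity values of 45101 probe sets, made with MAS5 per the submitters' processing notes; its version and scaling target are not given in the sources used here. Symbols came from the platform annotation: 34945 probe sets had 1 symbol, 932 several and 9160 none, and 64 controls were left out.

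Arrays were scaled to a common 2% trimmed mean, values under the 25th percentile (9.80) were raised to it, and log2 was taken. A gene was read from its probe set of highest mean, and genes at or above the median probe set mean (36.3) were tested: 11525 of 18193. Temperature was fitted with limma 3.58.1 in R 4.3.3 (lmFit, eBayes, two-sided), with Benjamini-Hochberg adjustment over all genes. The fit without the block was tested on simulated data with independent noise on each array, which lack the pairing of the real arrays. Arrays of the same replicate number, as the labels give it, deviated together from their group means (correlations across genes of 0.541, 0.422, 0.497 and 0.614, at most 0.0566 between numbers), so the numbers pair the arrays. At most 0.708% of values were identical between any 2 arrays.

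All members are named, and of the other lists the genes past the threshold, at most 3 or, where 5 or fewer passed, all; of cell type lists the first 3 markers were also taken. Members and lists were chosen with earlier results of these data known. Promoters came from the RefSeq table of GRCm38.p6; Ccna2, Cdc25c, Aurkb, Tpx2 and Kif20a had no window there. Both strands were searched, and overlapping matches counted singly. Alternatives changed the scaling, floor, filter, probe set rule, variance model, pairing and arrays. Figures used matplotlib 3.10.9 in Python 3.11.15.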

Additional observations from a re-analysis of the deposited data

Results flagged for a closer look

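In 10 of 140 groups of 4 arrays examined, 1 array stood apart from the other 3, by a gap to its neighbour, as a share of the group's range on the log2 scale, above Dixon's 95% critical value; chance alone gives about 1 in 20 such groups. Of the 70 groups of mitotic genes, 6 did so. Cdk1 at 37 °C was highest in replicate 3 (665, next 536; gap 0.841 of the range), and so was Prc1 at 37 °C (376, next 313; 0.914). Racgap1 at 37 °C was highest in replicate 1 (338, next 297; 0.94). Bub1 at 31.5 °C was lowest in replicate 1 (197, next 216; 0.935), and Cdca8 at 31.5 °C in replicate 2 (372, next 410; 0.838). Kif2c at 37 °C was lowest in replicate 2 (153, next 183; 0.913), as was Cenpu at 37 °C (50.5, next 65.5; 0.873).

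Of the marker genes, Aldh1l1 of astrocytes was highest at 31.5 °C in replicate 1 (959, next 660; gap 0.865 of the range). Snap25 of neurons was lowest at 37 °C in replicate 3 (538, next 960; 0.883), and Pax6 of neural progenitors at 37 °C in replicate 4 (218, next 317; 0.909).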

How the results depend on the processing

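Each result was computed under up to 28 alternatives (26 or 27 for genes that some of them did not test). Of the 35 genes, 25 passed in none of theirs, nor as reported. Cdca3 passed in 17 and Ube2c in 14 (adjusted p up to 0.474 and 0.192). Among the 33 genes that did not pass, 15 changed sign in at least 1 alternative and 18 in none. Against 1 member lower, median scaling, no filter, and leaving out pair 1, 2 or 3 (with or without the block) gave 0, array weights 3, and leaving out pair 4 gave 3. Against 1 higher, no filter, the mean of probe sets, and leaving out pair 1, 2 or 4 without the block gave 0, while the 70th percentile filter and the intensity trend gave 2. Median scaling, no filter and the mean of probe sets also lowered the count of all genes that passed. Except where given above, shares of all genes in these alternatives are not given. Such counts are therefore not read as a result about the members. With the replicate number as a block, which follows the pairing, 2 were lower and 2 higher; with the block and without pair 4, 8 were lower, and without pair 3, 2 higher. Leaving out 1 array gave 0 to 3 lower and 0 to 2 higher. The members' median stayed between -0.14 and -0.03 with 1 array left out.

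Of single probe sets, 2 fell. Median scaling, no filter, leaving out pair 1, 2 or 3 without the block, and pair 2 with it gave 0, the 70th percentile filter and the trend 1, array weights 5, the block 5, leaving out pair 4 gave 5, and both together 9. The 2 higher probe sets became 1 with no filter and 0 without any 1 pair or, with the block, without pair 1 or 2. Leaving out 1 array gave 0 to 4 lower and 0 to 3 higher. Shares over all probe sets in these alternatives are not given here, so the counts are not read as a result about the members. At the 70th percentile filter 23 members were tested, of which 20 had pair 4 highest and 6 the pattern of pairs 1 to 3 below 0 and pair 4 above. Anapc11, of the other mitotic genes, turned from -0.33 to 0.10 when its probe sets were averaged. The cause of these shifts was not tested.

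With 4 arrays at each temperature, 7 of the 35 intervals reach a 1.5-fold change. Without detection calls, whether dim probe sets such as those of Cdc25c are above background cannot be told.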
